A study of Mus musculus with 20 samples.

Results

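Sorted dendritic epidermal T cells (DETCs) were compared with sorted Thy1hi basal keratinocytes from the same mouse tissue, the dorsal epidermis, gene by gene. The comparison rested on 9 of the 20 RNA-seq libraries of the series, 5 of DETCs and 4 of Thy1hi cells, and on the 15557 of 53380 annotated genes that had a normalized count of 10 or more in 3 or more of these 9 libraries. The study examined a Thy1-expressing population of basal keratinocytes, and since Thy1 is also carried by the T cells that live in mouse epidermis, this comparison asks how the transcriptomes of these neighbouring Thy1+ cells differ. DETCs were taken as Thy1+ cells with low Sca1 and no α6 integrin, and Thy1hi keratinocytes as α6+Sca1+ cells with high Thy1. Cells were thus chosen by the proteins of these 3 sort markers. The sort does not fix RNA levels, but the values of these genes are not independent of it and are a description. All samples carry the same genotype label, Thy1.2CreERT2-Rosa26-EYFP, a line in which a Thy1.2 promoter drives an inducible Cre recombinase and recombined cells express EYFP, and all are labelled untreated. The series text describes 8-week-old mice, the paper's methods describe wild-type C57BL/6J skin, and the sample labels give 12 to 16 weeks for DETCs and 20 to 23 weeks for Thy1hi cells, rising by a week from sample to sample, so population and labelled age cannot be told apart. Mice were pooled for sorting, libraries were made in batches that the labels do not assign, and no source ties a library to a mouse. The paper's figure legends differ, with 4 mice for each of these populations, fewer than the 5 DETC libraries, or 5 pooled mice. The p-values therefore measure the spread between libraries, which may be technical, and are too small where libraries share mice.

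DETCs are γδ T cells that seed the mouse epidermis before birth and stay there, in contact with keratinocytes through their dendrites. They carry a nearly invariant T cell receptor, depend on cytokines that signal through the IL-2 receptor β chain, and respond to stressed keratinocytes with growth factors and cytotoxic granules. Basal keratinocytes are epithelial cells held to the basement membrane by hemidesmosomes and to each other by desmosomes, and they either divide or leave the basal layer and cornify.

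DETC 1, 2 and 3 carry numbers that match a sample title. The other 2 columns carry numbers that match no title and are called DETC a and DETC b here. Depth was 7781256 to 12719397 reads on genes in DETCs and 7910401 to 11640152 in Thy1hi cells, of which the ribosomal RNA gene Rn45s took 21.6% to 36.4% and 20.6% to 37.0%. DETC a stands apart from the other DETC libraries. Among the 3483 genes called higher in DETCs by a fit that left DETC a out, DETC a had the highest value of the 5 libraries at 73.0%, and among the 2619 genes called higher in Thy1hi cells by that fit it had the lowest at 69.0%. Over all 15557 genes tested, DETC a had the highest value at 36.3% and the lowest at 31.8%. Some results, among them the summed keratin and hemidesmosome levels, are given with and without DETC a. Others, such as the summed junction level, are given only with it. At the edge of the filter, AC123619.2 and AC125108.1 were just inside, with 10.17 as the lowest of their 3 highest values, and AC125487.2 and Adcy4 just outside at 9.94.

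The 5 marker genes were all higher in DETCs. Cd3e (chr9:44998740-45009627, mm10, minus strand), which encodes the ε chain of the CD3 signalling complex, had normalized counts of 4412, 4800, 4354, 6287 and 3435 in DETC 1, 2, 3, a and b, and of 32.0, 47.4, 39.0 and 83.4 in Thy1hi 1 to 4. Cd3g (chr9:44969572-44980431, minus strand), the γ chain, averaged 5318 ± 1330 (SD, n = 5) and 57.1 ± 25.3 (SD, n = 4). The lowest DETC library lay far above the highest Thy1hi library for both genes. Il2rb (chr15:78480553-78495066, minus strand), the β chain shared by the IL-2 and IL-15 receptors, had 6318, 6585, 5605, 15726 and 10103 in DETCs and 75.1, 107, 19.5 and 70.8 in Thy1hi cells. Cd160 (chr3:96798763-96829351, minus strand), a receptor of cytotoxic lymphocytes, had 152 to 402 in DETCs, while Thy1hi 1 held its only 2 reads in Thy1hi cells. From the reads, the Cd160 ratio was 444, with an exact 95% interval of 123 to 3668 that covers counting error only. Thy1 (chr9:44043384-44048579, plus strand), on which both populations were sorted, was at 2260, 1969, 2235, 2058 and 1163 in DETCs and at 775, 663, 511 and 583 in Thy1hi cells, a ratio of means of 3.06. The Thy1 libraries of the populations did not overlap either. For Cd3e, Cd3g and Il2rb an exact two-sided permutation test gave p = 0.0159 each, the smallest that 5 against 4 libraries allow, and 0.0159 again after Benjamini-Hochberg adjustment over the 5 markers. The values of Thy1, a sort marker, and of Cd160, which passed the filter through the DETC libraries alone, are a description.

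**Figure D1:**
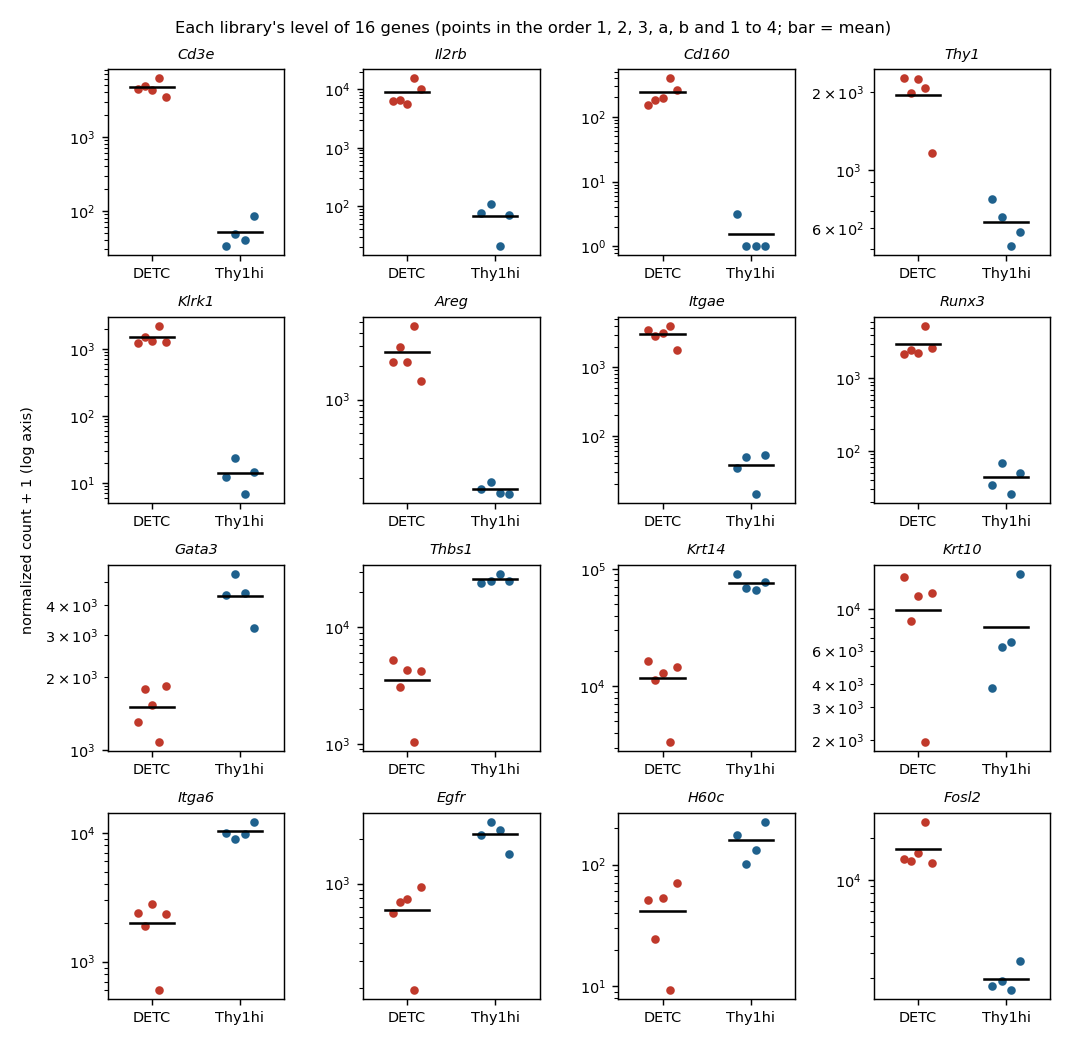
Normalized count plus 1 (log axis) of 16 genes in each library, DETC in red (order 1, 2, 3, a, b) and Thy1hi in blue (1 to 4), with a bar at the mean. T cell genes such as Cd3e and Il2rb lie far apart with no overlap, Krt14, Itga6 and Egfr are lower but present in DETCs with DETC a lowest, and Krt10 overlaps.

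Across the 15557 genes, differences were tested with limma on log2(normalized count + 1), with Benjamini-Hochberg adjustment and a threshold of 0.05. By this test 3488 genes (22.4%) were higher in DETCs and 2571 (16.5%) in Thy1hi cells. The libraries did not overlap for 3222 genes (20.7%) with DETCs on top and for 2426 (15.6%) with Thy1hi cells on top. The split depends on the scaling: under quantile normalization, which moved the median log2 fold change of all genes by -0.22, 2921 genes were higher in DETCs and 3800 in Thy1hi cells, or 43.5% of calls in DETCs against 57.6% with the deposited scaling. The 95% interval of the log2 fold change lay within 2-fold in both directions for 4469 genes (28.7%). These 5 percentages are the background for the gene lists. Of the genes called higher in DETCs, 515 had no Thy1hi library at 10 or more, and of those called higher in Thy1hi cells 73 had no DETC library at 10 or more. Such genes passed the filter only through the population where they were high and so had to differ, among them 7 of the 11 secreted mediators tested, 6 of 16 innate-like receptors, 5 of 10 T cell receptor genes, 5 of 19 pan-leukocyte genes, 4 of 20 residency genes, 3 of 14 cytotoxic genes and 2 of 26 CD3 list genes. No Thy1hi library reached 10 either for 4 of 7 markers of αβ and regulatory T cells, 2 of 4 endothelial markers and the B cell marker Ighm. The counts and medians of all these lists are therefore descriptions. Single members of some other lists, such as Pkp2 and Il13, passed in the same way.

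Of the genes called higher in DETCs, 855 had a log2 fold change of 3 or more and 261 of 5 or more, whereas 19 and 0 of those called higher in Thy1hi cells did. The median log2 fold change of the called genes was 1.64 in the DETC direction and 1.20 in the Thy1hi direction. These counts, of 15557 genes tested, and these medians include genes that passed the filter only through the population where they were high. Such genes were 515 of those called higher in DETCs and 73 of those called higher in Thy1hi cells, so the contrast in size is a description. Of 1078 long noncoding RNA genes tested, 195 were higher in DETCs and 41 in Thy1hi cells, beside 2988 and 2476 of 12931 protein-coding genes.

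**Figure D2:**
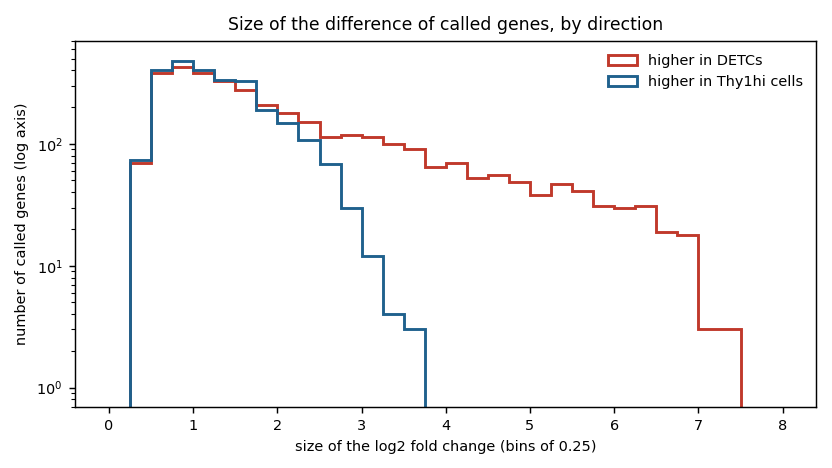
Number of called genes (log axis) by size of the log2 fold change in bins of 0.25, for genes higher in DETCs (red) and in Thy1hi cells (blue). Below about 2 the curves run together, and beyond 3 there are 855 genes in red and 19 in blue. The curves include genes that passed the filter only through the population where they were high, and are a description.

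**Figure D3:**
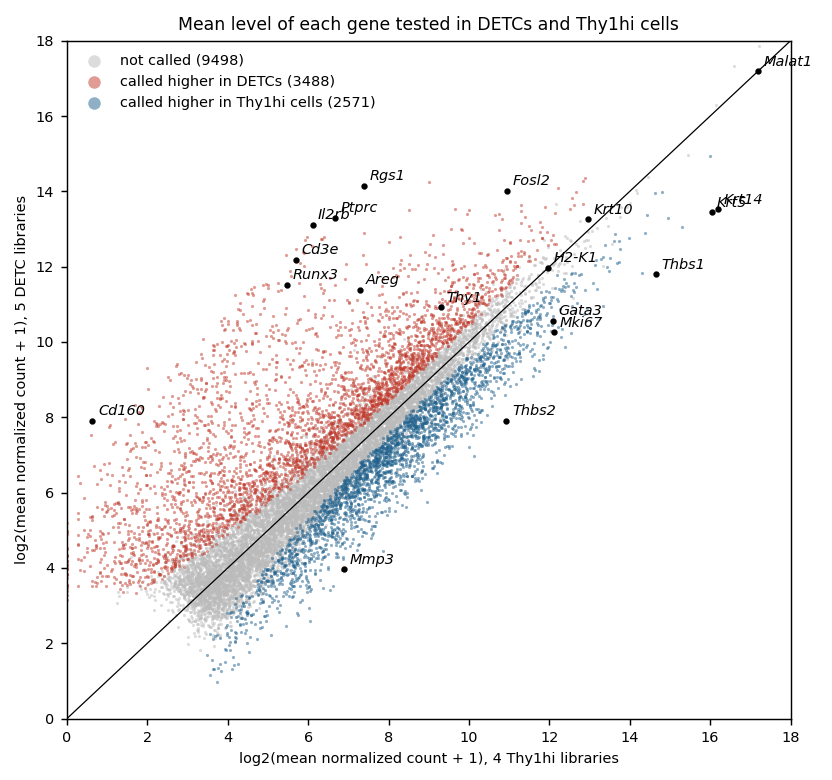
Log2(mean normalized count + 1) of each of the 15557 genes tested, Thy1hi cells on the horizontal and DETCs on the vertical axis, coloured by call, with the line of equal level. Red points reach far from the line down to the left edge, where Thy1hi cells are near 0, while blue points stay in a band below it.

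Genes with the largest differences in the DETC direction were, after Cd160 (log2 fold change 7.39 ± 0.44, SE), Wscd1 (7.34), Il2rb (7.12), Tcrg-C1 (7.12), Fam174b (7.07), Avil (6.95), Trdv4 (6.95) and Cd2 (6.95). Avil encodes advillin, an actin-binding protein of the villin family, and had 2128 to 4478 in DETCs and 7.32 to 31.0 in Thy1hi cells. The most abundant of the genes called higher in DETCs were Srrm2, Tnfaip3, Dennd4a, Rgs1 and Hspa5. Rgs1, a regulator of G protein signalling in lymphocytes, had 13374, 17474, 11861, 33974 and 14465 in DETCs and 70.7 to 245 in Thy1hi cells. Dennd4a, with 14124 to 35956 against 431 to 589, was of like rank.

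In the Thy1hi direction the largest differences were smaller and mostly in genes of low level. BC100530 (log2 fold change -3.70), Akr1b8 (-3.64), Mmp3 (-3.53), Depdc7 (-3.40), Anxa3 (-3.40), Nxph4 (-3.34), Sox15 (-3.28) and Ch25h (-3.23) led them. Mmp3, the matrix metalloproteinase stromelysin-1, had 162, 103, 78.8 and 125 in Thy1hi cells and 32.3, 12.2, 9.49, 0 and 19.2 in DETCs. Ch25h, which makes 25-hydroxycholesterol, had 191 to 680 against 18.6 to 84.1. The most abundant genes called in this direction were Krt14, Krt5, Dsp, Col17a1 and Dst, structural genes of the basal layer described with their lists below.

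**Figure D4:**
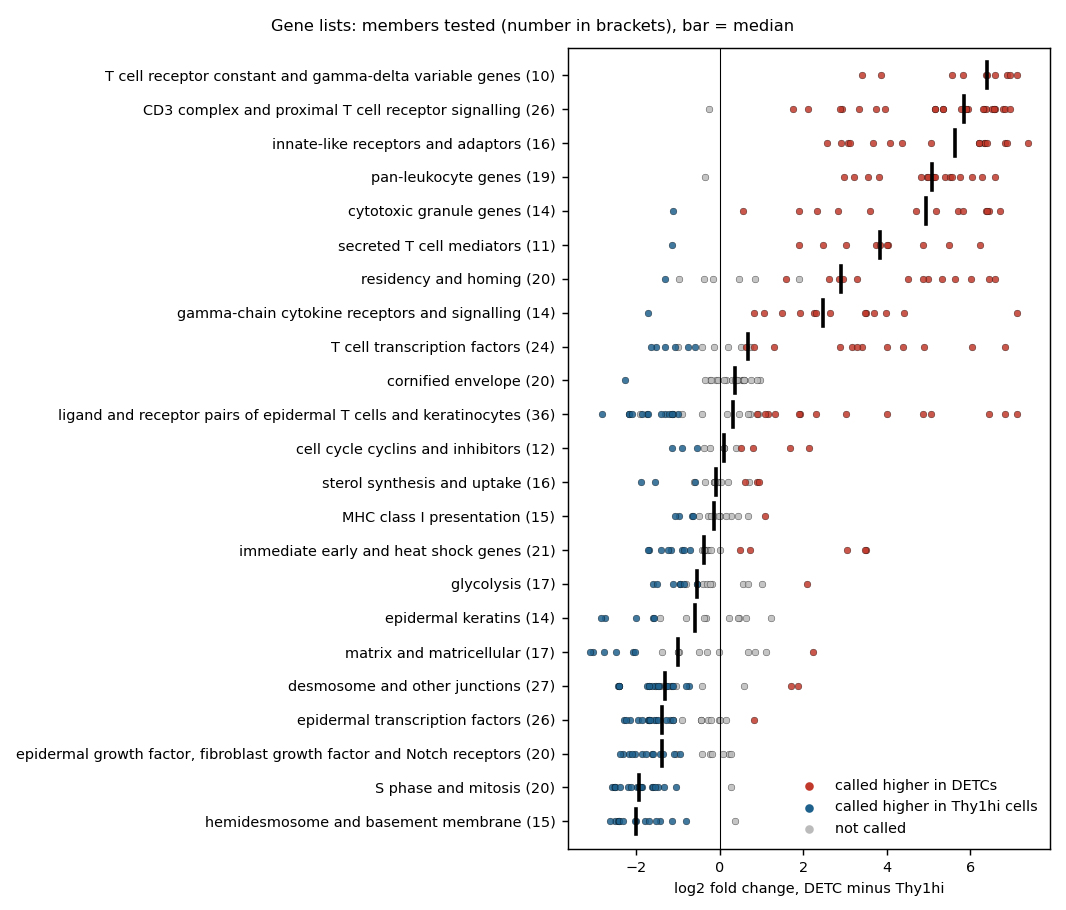
Log2 fold change (DETC minus Thy1hi) of each tested member of 23 gene lists, coloured by call, with a bar at the median and the number tested in brackets. T cell lists reach 5 to 7 on the right, and epithelial lists stay above about -3 on the left, with cornified envelope genes around 0.

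Of 26 genes of the CD3 complex and proximal signalling, 25 were higher in DETCs and none in Thy1hi cells, with a median log2 fold change of 5.84 beside 0.02 over all genes tested. Zap70, the kinase that docks on phosphorylated CD3 chains, had 628 to 1467 in DETCs and 4.42 to 22.4 in Thy1hi cells. Cd3d (chr9:44981786-44987339, plus strand), the δ chain, whose gene starts close to that of Cd3g on the opposite strand, had 365 to 538 in DETCs and 34.9 to 98.8 in Thy1hi cells. Its level in Thy1hi cells was thus 13.7% of that in DETCs, against 1.08% for Cd3e and 1.07% for Cd3g. Rasgrp1, a Ras activator of lymphocytes that keratinocytes also use, was the member not called (log2 fold change -0.27, 133 to 319 against 194 to 408).

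All 10 tested T cell receptor genes of 11 were higher in DETCs, with a median log2 fold change of 6.39. Trdv4, the variable segment of the DETC δ chain, had 2131, 2188, 2191, 3868 and 2077 in DETCs and 8.83, 40.8, 13.0 and 24.2 in Thy1hi cells. Its constant gene Trdc had 3830 to 8014 against 26.0 to 62.1. Tcrg-V5, the variable segment of the DETC γ chain, had 440 to 751 against 3.31 to 10.5. Constant genes of the other receptor class were present as well: Trbc1 had 204 to 413 in DETCs and 0 to 3.95 in Thy1hi cells, and Trac 67.3 to 145 and 0 to 3.25. Per kb of exon, the mean normalized count in DETCs was 1308 for Trdc and 407 for Trbc1. Whether the Trbc1 and Trac reads came from DETCs or from αβ T cells within the sort was not tested. All 7 tested markers of αβ and regulatory T cells of 8 were higher in DETCs, with a summed level of 405 to 1008 against 22.3 to 60.6 in Thy1hi cells. Of these 7, 4 passed the filter through the DETC libraries alone, so the count is a description. Cd8b1, the CD8 β chain, had 75.3, 30.5, 83.0, 41.2 and 6.0 in DETCs, and Cd4 4.80 to 17.6.

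All 16 tested innate-like receptors and adaptors of 20 were higher in DETCs (median log2 fold change 5.63). Klrk1, which encodes NKG2D, a receptor for stress ligands, had 1218, 1518, 1316, 2220 and 1271 in DETCs and 11.0, 22.4, 5.69 and 13.6 in Thy1hi cells. Of its adaptors, Hcst (DAP10) passed the filter, at 19.2 to 51.9 against 0 to 3.31, and Tyrobp (DAP12) did not. Cd7 had 1326 to 2378 against 13.2 to 36.9, and Fcer1g, the common Fc receptor γ chain, 602 to 1320 against 4.88 to 12.1. Cd244, the SLAM family receptor 2B4, was at 910 to 2287 against 8.94 to 25.0.

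Of 14 genes of the common γ chain cytokine receptors and their signalling, 13 were higher in DETCs and 1 in Thy1hi cells (median log2 fold change 2.47). Beside Il2rb, Il4ra had 2512 to 6527 in DETCs and 596 to 872 in Thy1hi cells, Il2rg, the shared γ chain, 411 to 884 against 27.7 to 56.1, and Il2ra, the chain that completes the high-affinity IL-2 receptor, 94.1 to 366 against 14.6 to 54.0. Jak1, the kinase of the β chain, differed less (log2 fold change 1.05), with 4883 to 11168 against 2731 to 3319. Il15ra, the chain that presents IL-15 to neighbouring cells, ran the other way, with 167 to 258 in Thy1hi cells and 24.7 to 117 in DETCs (log2 fold change -1.73, adjusted p = 0.0031).

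Cytotoxic granule genes were higher in DETCs in 13 of 14 tested of 17 listed, with 1 higher in Thy1hi cells (median log2 fold change 4.93). Prf1, the pore-forming perforin, had 1077, 790, 1255, 1018 and 649 in DETCs and 13.2, 6.59, 4.06 and 22.3 in Thy1hi cells. The granzymes were lower in level, with Gzmb at 38.4 to 171 and Gzmc at 46.6 to 177 in DETCs, against at most 13.2 in any Thy1hi library, and Gzma, Gzmk and Gzmm did not pass the filter. Serpinb6b, a serpin of cytotoxic lymphocytes, reached 1124 to 3150 against 10.6 to 36.9. Lyst, needed for granule biogenesis, was at 1197 to 2304 against 217 to 365. Lamp1, a membrane protein of all lysosomes, was the member higher in Thy1hi cells (1158 to 1600 against 424 to 746).

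Of 21 secreted mediators, 11 passed the filter, of which 10 were higher in DETCs and 1 in Thy1hi cells. Areg, the EGF receptor ligand amphiregulin, was the most abundant, with 2174, 2940, 2193, 4600 and 1475 in DETCs and 157, 182, 144 and 141 in Thy1hi cells, a 17.2-fold difference (log2 fold change 4.0, 95% interval 3.39 to 4.6). Tgfb1 had 899 to 2246 against 257 to 427, Tnf 287 to 366 against 23.3 to 59.3, and Xcl1, a chemokine for dendritic cells, 115 to 303 against 0 to 4.85. Il13 was at 24.0 to 56.2 in DETCs, with 3 reads in Thy1hi 2 and none in the other Thy1hi libraries. The ratio from reads pooled over libraries was 58.0, with an exact 95% interval of 19.6 to 283 that covers counting error only. Because Il13 passed the filter through the DETC libraries alone, its values are a description. Il17a, Il22, Ifng, Fgf7, Fgf10 and Igf1 were among the 10 that did not pass the filter. Csf1, the macrophage growth factor, was higher in Thy1hi cells, with DETC a lowest at 21.9 and the other DETC libraries at up to 55.8.

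Residency genes divided less evenly: 13 of 20 tested (23 listed) were higher in DETCs, 1 was higher in Thy1hi cells and 6 were not called. Itgae, the αE integrin that binds E-cadherin on keratinocytes, had 1757 to 4028 against 13.0 to 52.4. Itgal, the α chain of LFA-1, had 1110 to 2234 against 8.13 to 22.4, and Cxcr6 611 to 1323 against 6.50 to 23.7. Cd69, which keeps T cells in tissue, had 283 to 560 against 4.88 to 32.9, and Ccr8, a skin-homing receptor, 25.2 to 109 against 0 to 3.31. Klf2, a factor that drives exit from tissue in T cells, was higher in Thy1hi cells (146 to 270 against 41.2 to 125, adjusted p = 0.0104), a call lost with all populations in 1 fit (adjusted p = 0.117).

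Among 24 transcription factors known from T cells, 12 were higher in DETCs, 6 in Thy1hi cells and 6 were not called (median log2 fold change 0.67). Runx3, a factor of cytotoxic and epidermal T cells, had 2133, 2421, 2237, 5296 and 2580 in DETCs and 33.1, 68.5, 24.4 and 48.5 in Thy1hi cells. Ikzf1, a lymphoid chromatin regulator, had 1667 to 3205 against 9.75 to 28.1, and Tcf7 1211 to 2557 against 49.6 to 140. Ets1 was also present in keratinocytes, at 318 to 518, but higher in DETCs at 2413 to 4603. Gata3, a factor of T cells that is also an epidermal regulator, was higher in Thy1hi cells, with 4397, 5406, 4510 and 3217 against 1304, 1797, 1542, 1073 and 1842 in DETCs (log2 fold change -1.54, adjusted p = 0.000133). Rora was higher in Thy1hi cells too (2292 to 2817 against 1050 to 1875).

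Promoters of 5 genes from these groups are shown because they hold one of 4 motifs searched, and they were picked after their matches and values were seen. Runx3 had 2 promoters listed, and the choice between them went by the number of matches. The motifs were TATAAA on the strand of the gene and, on both strands, TGTGGT (the core of RUNX sites), CCGGAAGT (ETS) and TGANTCA (AP-1, which reads alike on both strands). Each sequence runs 5′ to 3′ on the strand of the gene from 250 bases before to 50 bases after the RefSeq start (GRCm38.p6, the assembly that mm10 denotes), with every match in capitals; ACCACA is TGTGGT read on the other strand.
Runx3, chr4:135120395-135120694, plus strand, 2 RUNX matches before the start: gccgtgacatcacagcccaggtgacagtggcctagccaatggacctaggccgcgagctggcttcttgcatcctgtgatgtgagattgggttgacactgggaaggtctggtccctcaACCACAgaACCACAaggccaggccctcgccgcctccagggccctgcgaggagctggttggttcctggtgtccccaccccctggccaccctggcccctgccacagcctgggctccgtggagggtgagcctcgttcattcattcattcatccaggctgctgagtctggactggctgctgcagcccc
Prf1, chr10:61297586-61297885, plus strand, 1 RUNX match: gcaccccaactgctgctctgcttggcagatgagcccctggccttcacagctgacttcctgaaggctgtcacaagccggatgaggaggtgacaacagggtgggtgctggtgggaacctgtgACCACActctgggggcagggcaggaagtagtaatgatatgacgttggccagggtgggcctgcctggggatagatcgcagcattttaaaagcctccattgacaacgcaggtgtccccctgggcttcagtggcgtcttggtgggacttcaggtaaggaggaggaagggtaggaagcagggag
Klrk1, chr6:129623815-129624114, minus strand, 1 RUNX match and 1 AP-1 match: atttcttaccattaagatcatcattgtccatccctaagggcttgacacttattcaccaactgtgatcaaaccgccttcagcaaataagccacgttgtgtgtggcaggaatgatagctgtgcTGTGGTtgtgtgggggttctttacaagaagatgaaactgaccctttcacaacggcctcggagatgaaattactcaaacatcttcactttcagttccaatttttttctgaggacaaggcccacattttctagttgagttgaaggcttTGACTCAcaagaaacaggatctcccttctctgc
Areg, chr5:91139349-91139648, plus strand, 1 TATAAA match 31 bases before the start: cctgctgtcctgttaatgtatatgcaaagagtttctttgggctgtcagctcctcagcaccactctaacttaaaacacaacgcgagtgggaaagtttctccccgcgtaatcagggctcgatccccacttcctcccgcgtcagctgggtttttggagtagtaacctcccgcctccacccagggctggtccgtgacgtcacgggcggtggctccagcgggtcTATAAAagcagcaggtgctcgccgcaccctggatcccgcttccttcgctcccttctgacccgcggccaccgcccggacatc
Col17a1, chr19:47691993-47692292, minus strand, 2 TATAAA matches and 1 RUNX match, a gene higher in Thy1hi cells: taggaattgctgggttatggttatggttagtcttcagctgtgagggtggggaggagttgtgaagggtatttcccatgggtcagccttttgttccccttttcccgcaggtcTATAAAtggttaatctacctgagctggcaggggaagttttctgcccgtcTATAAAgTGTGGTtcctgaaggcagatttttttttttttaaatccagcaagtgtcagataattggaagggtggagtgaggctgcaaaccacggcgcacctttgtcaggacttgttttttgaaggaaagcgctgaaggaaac

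Of the genes tested, 10523 had a promoter in the table. TGTGGT stood in 13.6% of 3153 promoters of genes higher in DETCs, in 12.7% of 2487 promoters of genes higher in Thy1hi cells, in 12.8% of those of all genes tested and in 16.8% of all 32851 promoters. Among the 7734 promoters of genes tested and not called it stood in 12.5%. CCGGAAGT stood in 5.46%, 6.84%, 7.26% and 3.89% of the same promoters and in 8.13% of those of uncalled genes, the lowest share among tested genes being that of genes higher in DETCs. TGANTCA stood in 5.46%, 5.71%, 5.69% and 7.81%, and TATAAA in 4.28%, 4.5%, 4.79% and 8.32%, with 5.78% and 5.09% for uncalled genes. These shares are given as a description, with no test, and a match is not a bound site.

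T cell transcripts were not absent from Thy1hi cells, but they were few. Ptprc, which encodes CD45, had 9535, 9069, 9410, 16469 and 5863 in DETCs and 93.8, 134, 70.7 and 106 in Thy1hi cells. Of 19 tested pan-leukocyte genes of 20, 18 were higher in DETCs (median log2 fold change 5.08), among them Ptpn22 at 2478 to 6671 against 28.4 to 56.6 and Dock8 at 2884 to 6787 against 204 to 368. Arhgdib, a cytoskeletal regulator, was the member not called, with 291 to 352 against 332 to 481 (adjusted p = 0.0881). It passed as higher in Thy1hi cells under the rescaled and quantile scalings, edgeR, DESeq2 and without Thy1hi 4, with adjusted p from 0.0155 to 0.0448. Summed over the list, pan-leukocyte genes in Thy1hi cells were at 4.26% of their DETC level, CD3 and proximal signalling genes at 2.36%, innate-like receptors at 1.48% and T cell receptor genes at 0.987%. By library the CD3 sum in Thy1hi 1 to 4 was 2.06%, 2.81%, 1.80% and 2.79% of the DETC mean. Gene by gene, 14 of the 26 CD3 list members were under 2%, with Cd247 lowest at 0.847%. In bulk samples fewer cells of a type and less RNA per cell cannot be told apart, and the part of sorted T cells in these levels was not tested.

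Of the 14 keratins tested, 5 were higher in Thy1hi cells, and these were still detected in every DETC library. Krt14 (chr11:100203162-100207548, minus strand), the type I keratin of basal cells, had 90985, 68124, 65455 and 76817 in Thy1hi cells and 16495, 11382, 12940, 3319 and 14562 in DETCs. Its partner Krt5 (chr15:101707070-101712891, minus strand) had 80657, 59250, 49782 and 79216 against 16494, 10499, 13617, 3248 and 11818. The libraries of the populations did not overlap, and DETC a was the lowest for both genes. Krt14 in DETCs was thus 15.6% and Krt5 16.6% of the Thy1hi level, log2 fold changes of -2.85 ± 0.42 and -2.75 ± 0.42 (SE). Krt15, a keratin of basal and bulge cells, had 12668 to 35169 against 1969 to 10834, a call lost without Thy1hi 1 (adjusted p = 0.0540) or Thy1hi 4 (0.0630) and after quantile normalization (0.0516). Krt16, a keratin of activated epidermis, had 6865 to 10914 against 718 to 4639.

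Of 15 hemidesmosome and basement membrane genes, 14 were higher in Thy1hi cells and none in DETCs (median log2 fold change -2.0). Col17a1, the hemidesmosomal collagen, had 40803, 33722, 40460 and 45437 in Thy1hi cells and 9334, 8545, 12043, 2401 and 10229 in DETCs. Itga6, whose product was used in the sort, had 9021 to 12214 against 598 to 2809. The linkers Dst (23949 to 44076 against 3057 to 16707) and Plec (23036 to 38997 against 12535 to 20488) were higher as well, though neither passed after quantile normalization (adjusted p = 0.0639 and 0.605). Nid1, a basement membrane glycoprotein made mostly by other cells, was not called, at 4.06 to 18.8 against 1.37 to 47.8.

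Of 27 tested genes of desmosomes and other junctions (28 listed), 17 were higher in Thy1hi cells, 2 in DETCs and 8 were not called (median log2 fold change -1.32). Dsp, the desmosomal plaque protein desmoplakin, had 55066 to 77613 in Thy1hi cells and still 13346 to 40357 in DETCs (log2 fold change -1.14), a call lost without Thy1hi 4 (adjusted p = 0.0518) and after quantile normalization (0.449). Dsc3, a desmosomal cadherin of the basal layer, had 12700 to 15780 against 1397 to 6047, and Perp 10659 to 11723 against 1225 to 5360. Cdh1, E-cadherin, had 8036 to 9443 against 2419 to 5545. The 2 that went the other way were Tjp1, the tight junction scaffold ZO-1, with 2880, 3882, 2940, 9854 and 5755 in DETCs against 1132 to 1605 in Thy1hi cells, and Pkp2, a plakophilin, with 18.3 to 33.3 against 5.52 to 7.76.

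Epidermal transcription factors were higher in Thy1hi cells in 16 of 26 cases, higher in DETCs in 1 and not called in 9 (median log2 fold change -1.39). Trp63, the master regulator of stratified epithelia, had 3982 to 5848 against 435 to 1799, and Klf5 4153 to 5719 against 401 to 1667. Klf4, a factor of epidermal barrier formation, was at 3257 to 6026 in Thy1hi cells and 3731 to 4788 in DETCs, with an interval within 2-fold. Runx1 was the member higher in DETCs, at 159 to 274 against 113 to 136.

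**Figure D5:**
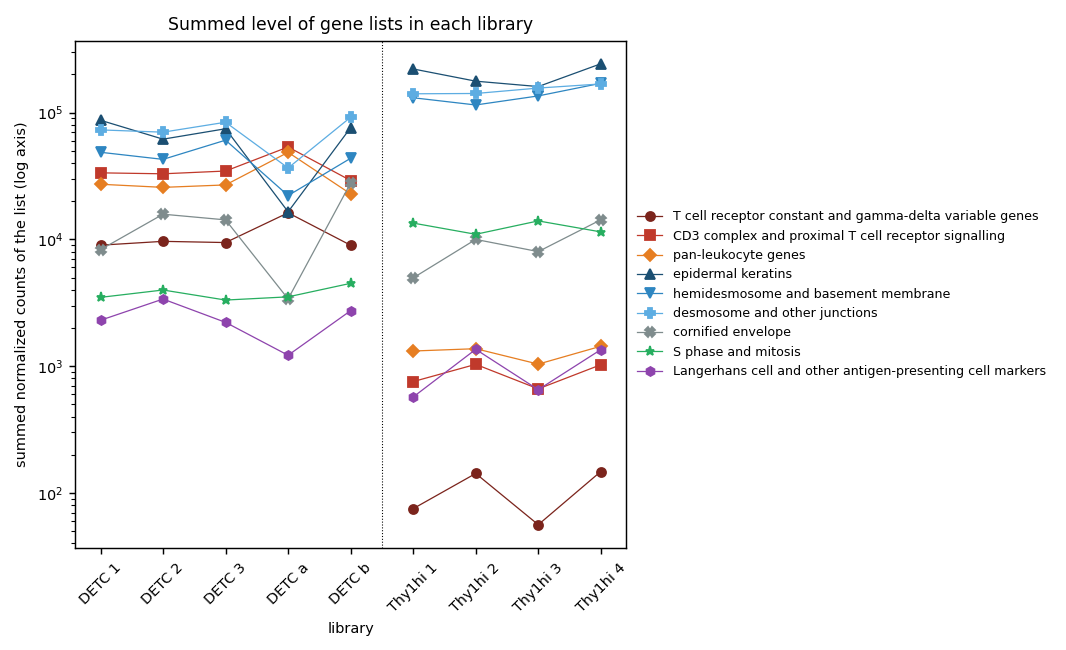
Summed normalized counts (log axis) of 9 gene lists in each of the 9 libraries, DETC to the left and Thy1hi to the right of the dotted line. DETC a has the highest T cell sums and the lowest keratin, anchoring and junction sums of the DETC libraries, while its S phase and mitosis sum lies among the others.

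Summed over the list, keratins in DETCs were at 31.5% of the Thy1hi level, hemidesmosome genes at 31.6% and junction genes at 46.9%. By library, the keratin sum in DETC 1, 2, 3, a and b was 43.4%, 30.8%, 37.2%, 8.23% and 38% of the Thy1hi mean, and the hemidesmosome sum 35.3%, 31.0%, 44.0%, 16.1% and 31.6%. Without DETC a, the keratin level rose to 37.4% and the hemidesmosome level to 35.5%. DETC a also had the highest CD3 sum, 53566 against 29131 to 34612 in the other 4. The part of keratinocytes in the DETC sort, or of RNA carried over from them, was not tested. Among the 27 junction genes the lowest share left in DETCs was 20.1%, for the connexin gene Gja1, whereas in Thy1hi cells 19 of the 26 CD3 list genes were under 5% of their DETC level.

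Krt10, the keratin of the layer above the basal cells, had 14756, 8623, 11715, 1952 and 12125 in DETCs and 3777, 6247, 6677 and 15384 in Thy1hi cells (log2 fold change 0.21, 95% interval -1.03 to 1.45). Krt77 likewise had 2117 to 13653 against 2812 to 13704. The libraries of both populations overlapped for both genes, and the Krt10 interval reaches past 2-fold either way. Of 18 keratins listed, 14 were tested, 5 were higher in Thy1hi cells and 9 were not called (median log2 fold change -0.60).

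Of 20 cornified envelope genes, 19 were not called and 1 was higher in Thy1hi cells (median log2 fold change 0.37). Flg2, a filaggrin family member, had 1503, 5612, 5490, 1147 and 10540 in DETCs and 886, 2978, 2901 and 4758 in Thy1hi cells, and Lor, loricrin, 158 to 1576 against 166 to 547. Sbsn had 296 to 2078 against 383 to 1859, and without DETC a it was called higher in DETCs (log2 fold change 1.08, adjusted p = 0.0378), as were 3 members of the list. Tgm3, a transglutaminase, was the member higher in Thy1hi cells, at 132 to 290 against 21.9 to 58.7. Summed, the list ran from 3389 in DETC a to 27852 in DETC b and from 4968 to 14265 in Thy1hi cells.

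The secreted thrombospondins were among the strongest Thy1hi genes. Thbs1 (chr2:118111876-118127133, plus strand), which activates latent TGF-β, had 24099, 25086, 28818 and 24841 in Thy1hi cells and 5216, 3063, 4332, 1032 and 4191 in DETCs, a 7.21-fold difference (log2 fold change -3.04 ± 0.40, SE). Thbs2 had 1600 to 2351 against 103 to 336 (log2 fold change -3.11). Cyr61, a matricellular YAP target, had 2113 to 3734 against 221 to 936, and Efemp1, fibulin-3, 110 to 230 against 8.41 to 54.5. Of 17 matrix genes, 6 were higher in Thy1hi cells, 10 were not called and 1, Fbln2, was higher in DETCs (54.8 to 111 against 11.4 to 19.8).

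Of 20 growth factor, Notch, Wnt and BMP receptor and ligand genes, 13 were higher in Thy1hi cells and none in DETCs (median log2 fold change -1.40). Egfr, the receptor for amphiregulin, had 2113, 2612, 2293 and 1589 in Thy1hi cells and 630, 750, 791, 191 and 945 in DETCs. Fgfr2, whose IIIb form binds Fgf7 and Fgf10, had 3620 to 4560 against 348 to 1383. Notch1 had 5490 to 6789 against 2080 to 3974, and its ligand Dll1 535 to 1029 against 79.6 to 280.

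Several known pairs of DETC and keratinocyte molecules lay on opposite sides. Areg was higher in DETCs and its receptor gene Egfr in Thy1hi cells, and Itgae was higher in DETCs and Cdh1 in Thy1hi cells, with the values above. Jaml, the DETC receptor for CAR, had 107 to 291 in DETCs and 1.10 to 12.6 in Thy1hi cells, while Cxadr, which encodes CAR, had 1842 to 2735 in Thy1hi cells and 712 to 1749 in DETCs. Klrk1 was higher in DETCs and H60c, a skin ligand of NKG2D, in Thy1hi cells, with 176, 100, 130 and 224 against 49.9, 23.4, 52.2, 8.23 and 69.7. Sema4d had 262 to 388 in DETCs and 163 to 209 in Thy1hi cells, and its receptor Plxnb2 2061 to 2752 in Thy1hi cells and 446 to 1235 in DETCs. Over the whole list, 36 of 45 genes were tested, of which 14 were higher in DETCs, 13 in Thy1hi cells and 9 were not called. The receptor Tgfbr2 was on the same side as its ligand gene Tgfb1, at 2298 to 5137 in DETCs and 1153 to 1268 in Thy1hi cells.

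Of 20 genes of S phase and mitosis, 19 were higher in Thy1hi cells and none in DETCs (median log2 fold change -1.93). Mki67, a marker of cycling cells, had 4848, 4237, 5680 and 3117 in Thy1hi cells and 973, 1343, 972, 1227 and 1632 in DETCs, a 3.64-fold difference (95% interval of the log2 fold change -2.33 to -1.39). Top2a had 1816 to 2239 against 365 to 620, and Ccnb1, the mitotic cyclin B1, 167 to 222 against 24.7 to 46.8. DETC a, lowest for keratins, was within the range of the other DETC libraries for Mki67. Pcna, which also serves in DNA repair, was not called (163 to 233 against 197 to 270, within 2-fold).

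Cdkn1b, the inhibitor p27, had 982 to 2584 in DETCs and 380 to 508 in Thy1hi cells (log2 fold change 1.69), and Rb1, the retinoblastoma gene, 737 to 1681 against 189 to 242 (2.13). Cdk6 was higher in Thy1hi cells (684 to 984 against 491 to 654). Of the 12 tested cyclins, kinases and inhibitors (13 listed), 4 were higher in DETCs, 3 in Thy1hi cells and 5 were not called.

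Metabolic lists were mixed. Of 17 glycolysis genes, 7 were higher in Thy1hi cells, 1 in DETCs and 9 were not called. Pkm, pyruvate kinase, had 3022 to 4768 in Thy1hi cells and 1212 to 1591 in DETCs, and the glucose transporter gene Slc2a1 1488 to 2945 against 553 to 828. Hk2, the inducible hexokinase, was the exception, with 3236, 4242, 4390, 8830 and 5716 in DETCs and 1171, 1909, 1310 and 648 in Thy1hi cells. Gapdh was not called (1206 to 2124 in DETCs, 792 to 1374 in Thy1hi cells, adjusted p = 0.0708). Of 16 sterol genes, 3 were higher on each side and 10 were not called: Fdft1, squalene synthase, had 692 to 1033 in Thy1hi cells and 108 to 482 in DETCs, and Insig1, a sterol feedback gene, was higher in DETCs at 268 to 565 against 192 to 236. Hmgcs1 was called higher in Thy1hi cells (1527 to 2347 against 1017 to 1518), but not without Thy1hi 3 (adjusted p = 0.0670).

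Immediate early and heat shock genes split by gene. Fosl2 had 13989, 13684, 15585, 26034 and 13299 in DETCs and 1748, 1891, 1628 and 2625 in Thy1hi cells (log2 fold change 3.04). Nr4a3, an orphan receptor induced by T cell receptor signalling, had 6673 to 16956 against 743 to 1262, and Nr4a2 1542 to 6573 against 228 to 376. Jun and Atf3 were higher in Thy1hi cells, at 12418 to 15192 against 2164 to 7378 and at 8251 to 15742 against 1199 to 5459. Fos did not differ beyond 2-fold (7596 to 10067 in DETCs, 7022 to 17509 in Thy1hi cells). In all, 5 of 21 were higher in DETCs, 8 in Thy1hi cells and 8 were not called. With the libraries of all populations in 1 fit, none of the 8 passed, with Jun at an adjusted p of 0.0848 and Atf3 at 0.118.

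The genes within 2-fold numbered 4469, or 6969 with a pseudocount of 10 in place of 1. Of the 4469, the 8 of highest level were Malat1, Rn7sk, mt-Co1, Hsp90ab1, mt-Atp6, Myh9, Eef2 and Neat1. H2-K1, a classical MHC class I heavy chain, had 4616, 3842, 3920, 3972 and 3673 in DETCs and 3967, 4094, 3873 and 4096 in Thy1hi cells, a log2 fold change of -0.01 (95% interval -0.30 to 0.29). Its light chain gene B2m had 2477 to 3532 against 2778 to 3875 (95% interval -0.49 to 0.21). Of 15 MHC class I genes, 8 were within 2-fold, 4 were higher in Thy1hi cells, among them the peptide transporter Tap1 (914 to 1121 against 395 to 672), and 1 in DETCs, the chaperone Calr (4663 to 13232 against 2842 to 4310). Malat1, a nuclear long noncoding RNA, had 122351 to 163751 in DETCs and 112222 to 221710 in Thy1hi cells.

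Markers of other epidermal cells were checked in both populations. All 8 tested Langerhans and antigen-presenting cell markers of 9 were higher in DETCs (median log2 fold change 1.32), though the libraries of 7 of them overlapped. Cd207, langerin, had 329, 569, 338, 177 and 444 in DETCs and 106, 216, 104 and 217 in Thy1hi cells, a call lost without Thy1hi 1 (adjusted p = 0.0625) or Thy1hi 3 (0.0605). The Langerhans sum was 1218 in DETC a and 2214 to 3382 in the other DETC libraries, against 571 to 1357 in Thy1hi cells. Of 5 tested melanocyte markers 3 were higher in DETCs, among them Kit (65.6 to 192 against 4.88 to 19.8) and Dct (58.9 to 127 against 18.8 to 60.1), of 6 sebocyte, 5 fibroblast and 1 Merkel cell markers tested and of 5 sex-linked genes none was called. Of 4 endothelial and 7 hair follicle stem cell markers 1 each was higher in DETCs, as was the only B cell marker tested, Ighm, and mast cell and erythrocyte markers did not pass the filter. The part of these cells in the differences above was not tested.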

How the data were processed

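Libraries of sorted epidermal cells were made with an mRNA kit or, per the labels, a stranded total RNA kit. The deposited table holds a normalized signal per gene, read counts divided by size factors. The authors used STAR (mm10), featureCounts and DESeq2 to make it, per the methods and the submitters' processing notes. Whole reads were recovered from the table: in each library 100% of nonzero values of up to 50 reads lay within 0.1 read of a whole number, and the count models were run on them as alternatives.

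Genes with 10 or more in 3 or more of the 9 libraries were tested with limma 3.58.1 (R 4.3.3) on log2(normalized count + 1), so fold changes of low genes are understated, with Benjamini-Hochberg adjustment over all 15557 genes. Count-based alternatives used edgeR 4.0.16, which called 3280 genes higher in DETCs and 2777 in Thy1hi cells, and DESeq2 1.42.0, which called 3575 and 3066. Counting intervals are exact and cover counting error only. Named genes were the markers, members of each gene list (those with the largest difference, a role a statement needs, or a direction against their list), the 8 called genes with the largest log2 fold changes and no overlap and the 5 most abundant called genes in each direction, the 8 most abundant genes within 2-fold, and genes at the edge of the filter. Predicted genes (Gm, Rik) were left out of these ranks, and mitochondrial and ribosomal RNA genes out of the abundant called genes. List members were so picked after their values were seen. The comparison and the gene lists were chosen with earlier results of these data known. Gene coordinates are those of the deposited table, and exon lengths and gene types come from GENCODE vM21. Promoters came from RefSeq (GRCm38.p6). The alternatives were other pseudocounts, filters and scalings, the count models, all populations in 1 fit, a replicate block, array weights and leaving out each library. The fit of all populations held 19 of the 20 libraries. It left out a library of sorted Thy1-negative keratinocytes, whose correlation with its own group was 0.833 and whose mitochondrial share was 1.07%. The scripts were tested on simulated data. Proteins were not used here, and the values of some genes are not reported here.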

Additional observations from a re-analysis of the deposited data

Results flagged for a closer look

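A library was taken as far from its group when its gap to the nearest other library, as a share of the group's range, passed Dixon's 95% value. Of 344 groups of values 37 were so marked, and chance marks about 1 in 20 groups. DETC a was the library marked in 23 cases as high and in 4 as low.

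DETC a was far above the other DETC libraries for Dennd4a (35956), Srrm2 (35314), Rgs1 (33974), Fosl2 (26034), Trdc (8014), Dock8 (6787), Ptpn22 (6671), Runx3 (5296), Avil (4478), Fam174b (4428), Trdv4 (3868), Ikzf1 (3205), Cd2 (3174), Serpinb6b (3150), Cdkn1b (2584), Cd244 (2287), Tcrg-C1 (2280) and Rb1 (1681). Its sums were high for CD3 and proximal signalling (53566), pan-leukocyte genes (48625), T cell transcription factors (26366), glycolysis (23482) and T cell receptor genes (16209). It was far below them for Perp (1225), Plxnb2 (446), Lamp1 (424) and Csf1 (21.9).

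Of the other DETC libraries, DETC b was low for Thy1 (1163), DETC 3 for Cdh5 (3.16), and DETC 1 and 2 were high for BC100530 (21.5) and Dct (127.1). In Thy1hi cells, library 3 was high for Dsc3 (15780), library 2 was high for Cd4 (10.5) and Il13 (3.95) and low for Il2rg (27.7), library 1 was high for Cd160 (2.21), and library 4 was at 0 for Cdh5.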

How the results depend on the processing

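Of 149 named genes 127 were called. Named genes were compared under other pseudocounts, the rescaled and quantile scalings, edgeR, DESeq2, all populations in 1 fit and leaving out each library. No called named gene changed direction under these alternatives, and 112 stayed called under all of them. The other filters, recomputed size factors, replicate block, array weights and the fit without both DETC a and DETC b were not compared gene by gene. The count of genes within 2-fold was 6969 with a pseudocount of 10 against 4469. For the residual level, pan-leukocyte genes in Thy1hi cells were at 5.00% of their DETC level with the median of libraries, and at 4.02% to 5.03% when 1 library was left out, the highest without DETC a. Leaving out 1 library gave 2995 to 3483 genes higher in DETCs and 1875 to 2619 in Thy1hi cells, the fewest without Thy1hi 1. A replicate block over libraries 1 to 3 gave 3914 and 3225, against 3609 and 2793 for the same libraries without it, a fit chosen after seeing the data. Deviations of same-numbered libraries correlated at -0.10, 0.13 and 0.04, and those of the other pairs at -0.39 to 0.43. Whether same-numbered libraries share mice or a batch was not tested, and these correlations cannot decide it. Without a filter the median log2 fold change of all genes moved by -0.18. Among uncalled genes, the sign turned under quantile normalization for Hsp90ab1 (0.20), mt-Atp6 (0.16), mt-Co1 (0.56) and Malat1 (-0.047), and for Malat1 also when rescaled to the same total (-0.047), with edgeR (-0.065) and with DESeq2 (-0.043). When 1 library was left out, uncalled log2 fold changes spanned 0 for H2-K1 (-0.057 to 0.025), Klf4 (-0.16 to 0.14), Krt10 (-0.087 to 0.72), Malat1 (-0.089 to 0.24), mt-Co1 (-0.14 to 0.079) and Nid1 (-0.10 to 0.99). The cause was not tested. Depth limits genes with few reads, such as Cd160 and Il13 in Thy1hi cells.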
